A study of Mus musculus with 6 samples.

Results

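The genes of glycolysis, from the uptake of glucose to the export of lactate, were compared between HT22 cells exposed to aluminum (Al) and control cells. The group holds 33 of the 21878 gene symbols in the expression table: 3 glucose transporters, the hexokinases, phosphofructokinases and other enzymes of the pathway, the PFKFB enzymes, bisphosphoglycerate mutase, 2 lactate dehydrogenases, 2 lactate transporters and 3 pyruvate dehydrogenase kinases. HT22 is an immortalized mouse hippocampal neuronal line. The Al group was treated with 120 µM aluminum maltolate, a complex of aluminum with the chelator maltol, for 24 h, and the control group, as the methods define it, had medium alone. Cells given maltol without aluminum were not analysed here, so that aluminum and its chelator cannot be told apart. Each group had 3 libraries, described as biological replicates, and each library was the input of an m6A immunoprecipitation, that is, fragmented RNA that had not been enriched for m6A. The table gives FPKM, the fragments per kilobase of a gene, corrected for the size of the library, so that levels may be compared between genes.

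Glycolysis splits glucose into pyruvate in a preparatory phase, which spends ATP (hexokinase to triose phosphate isomerase), and a payoff phase, which returns ATP and NADH (GAPDH to pyruvate kinase). Lactate dehydrogenase then turns pyruvate into lactate and restores NAD+, while the pyruvate dehydrogenase kinases hold back the oxidation of pyruvate inside the mitochondria. Most steps have several isozymes that differ in tissue and in regulation. Neurons take up glucose mainly through GLUT3 and are known for a low glycolytic rate beside astrocytes. The mRNAs of the abundant enzymes have been copied into the genome many times as processed pseudogenes, which lack introns and can be nearly the same as the mRNA in sequence, so that a short read may match a gene and its copies equally well.

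That likeness is shown first, since it limits what can be read from the most abundant enzymes. In GENCODE annotation of GRCm38, pseudogene transcripts at least 90% identical to the coding sequence over at least 200 bases numbered 153 for Gapdh, 12 for Ldha, 6 for Pkm, 5 for Eno1, 4 for Pgk1, 3 for Pgam1, 2 each for Aldoa and Tpi1, and 1 each for Gpi1 and Ldhb. None was found for the other 23 genes. The coding sequence used was the longest annotated for each gene, which need not be that of its main form. The coding sequence of Pgk1 was 100% identical over all 1251 bases to the pseudogene Gm5537, and that of Gapdh was 100% identical to Gm7336 over 1017 of its 1077 bases. For Pkm the nearest copy, Gm6560, was 98.37% identical over all 1593 bases, and for Eno1 the nearest, Gm4735, was 99.62% identical over all 1302 bases. The windows of 100 bases below, on the strand of the gene and numbered from the first base of that coding sequence, show these 4 cases. For each pair the window with the most differences was taken, so the rest of the alignment is no less alike. Capitals mark the bases where gene and copy differ. The first belongs to Pgk1 (chrX:106187100-106203699, plus strand) and Gm5537 (chr3:58102996-58104247, minus strand) at coding positions 1 to 100, and the second to Gapdh (chr6:125161715-125166467, minus strand) and Gm7336 (chr7:51746647-51747878, plus strand) at positions 61 to 160, where each gene and its copy share every base.
Pgk1 and Gm5537: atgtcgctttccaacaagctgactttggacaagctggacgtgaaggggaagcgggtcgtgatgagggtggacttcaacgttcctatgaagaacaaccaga
Gapdh and Gm7336: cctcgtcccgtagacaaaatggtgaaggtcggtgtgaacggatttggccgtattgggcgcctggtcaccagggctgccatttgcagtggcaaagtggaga
The next pair is Pkm (chr9:59656368-59679375, plus strand) and Gm6560 (chr5:22724578-22726168, minus strand) at positions 326 to 425, with 4 differences.
Pkm: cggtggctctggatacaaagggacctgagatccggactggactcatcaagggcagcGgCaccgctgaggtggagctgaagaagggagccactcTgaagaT
Gm6560: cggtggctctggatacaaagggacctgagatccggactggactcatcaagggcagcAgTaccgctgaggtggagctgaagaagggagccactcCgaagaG
The last pair is Eno1 (chr4:150236721-150248879, plus strand) and Gm4735 (chr2:80837141-80838442, plus strand) at positions 717 to 816, with 2 differences.
Eno1: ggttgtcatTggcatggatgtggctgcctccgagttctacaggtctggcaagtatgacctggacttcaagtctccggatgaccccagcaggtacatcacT
Gm4735: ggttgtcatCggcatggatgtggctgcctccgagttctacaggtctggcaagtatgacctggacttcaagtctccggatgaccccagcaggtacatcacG
Of these copies, the expression table lists only a few by name, so what became of reads that match a gene and its copies cannot be followed. The values of all 10 genes with a copy are therefore uncertain, those of Ldhb and Gpi1 included. Their nearest copies were 98% identical to Ldhb over all 1002 coding bases and 98.66% identical to Gpi1 over 1043 of 1674. Pfkfb2 had no pseudogene copy, but 65.8% of its coding sequence was matched, at the same thresholds, by transcripts of 1 other gene. Its values carry the same limit.

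The FPKM values could be turned back into whole reads for 17654 of the 17688 genes above 0, which gave library totals of 38059492 to 44556768 reads in the control group and 21125631 to 26670978 in the Al group. The Al libraries thus all had smaller totals than the control libraries. Between 99.0% and 99.1% of each total lay on listed genes, so the totals may differ from the number of reads sequenced. Between 4.63% and 6.91% of the tested genes in an Al library lay more than 2-fold from the other Al libraries. In the control group it was 1.47% to 2.36%. Control library 3 was the highest of its group for 20 of the 30 glycolytic genes tested, with a median log2 difference of 0.22 from the other 2 libraries, where the median over all tested genes was -0.01. Markers of the neuronal label were nearly absent: 8 of 10 neuronal genes had a mean under 0.1 FPKM, Snap25 and Nefm were at 0 in every library, and the list was carried by Tubb3, whose mean was 5.32 FPKM in control cells and 3.40 in Al cells. The fibroblast genes Col1a1 and Col1a2 had control means of 990.0 and 1657 FPKM. The summed FPKM of 5 fibroblast markers was 2030 to 3239 in the control group and 2480 to 3465 in the Al group, with 1 marker called higher and 2 lower. The 5 astrocyte markers summed to between 14 and 23.3 FPKM in control cells and between 1.56 and 2.70 in Al cells, mostly from Slc1a3, which was called lower, and Aqp4 was at 0 in every library. The 5 microglial markers summed to at most 1.49 FPKM and the 5 oligodendrocyte markers to at most 0.799 FPKM in any library, with 1 microglial gene, Cx3cr1, called higher from a mean of 0.0665 to 0.542 FPKM. The part of these markers in the results below was not tested. In bulk RNA, fewer cells of a type and less RNA per cell cannot be told apart.

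Values below are scaled FPKM, the deposited FPKM divided by a size factor of the library (0.802 to 1.21), unless another scale is named. The comparison used limma on log2(scaled FPKM + 0.1) over the 12889 genes whose mean FPKM reached 0.1. A gene counted as called where the P before adjustment was below 0.05 and the log2 fold change (log2FC, Al minus control) was beyond 0.58 in either direction, the thresholds of the study. SE is the standard error of the log2FC, and the P was adjusted over all these genes by the Benjamini-Hochberg method. Slc2a3, Slc2a4 and Hk3 lay below that level, which left 30 glycolytic genes. Of these, 13 were called higher in the Al group and 7 lower, and 10 were not called. Over all tested genes 26.2% were called higher and 24.4% lower. The median log2FC was 0.40 over the 30 genes and 0.03 over all tested genes. For 20 of the 30 genes the Al and control values did not overlap, against 68.1% of all tested genes, so the count of separated genes was near the background. Phosphofructokinase and its PFKFB regulators held 4 of the 7 lower genes and 1 higher gene. Of the 9 tested preparatory enzymes 2 were called higher and 2 lower, and of the 8 payoff enzymes from GAPDH to pyruvate kinase 6 were called higher and 0 lower (limma), the side enzyme Bpgm not counted.

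**Figure D1:**
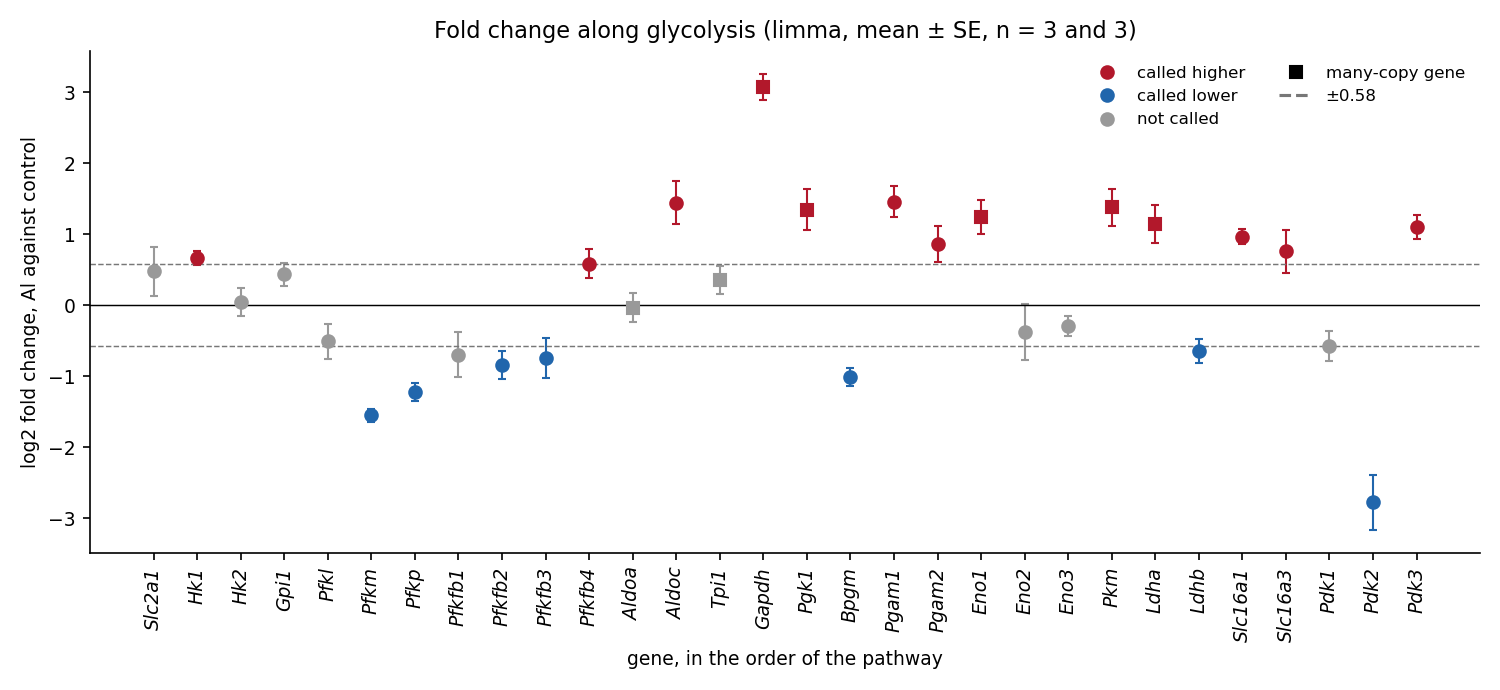
Log2 fold change (log2FC) of the 30 tested genes (Al against control, limma estimate with its standard error, n = 3 libraries in each group), in the order of the pathway on the x axis. Red points were called higher, blue lower and grey not called, squares are the 7 many-copy genes and dashed lines mark 0.58 in either direction. Gapdh lies highest at 3.08 and Pdk2 lowest at -2.78, and the 3 phosphofructokinases lie below 0.

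Glucose uptake rested on Slc2a1, the gene of GLUT1. Its level was 58.7, 57.0 and 99.7 in control cells and 59.8, 92.5 and 162 in Al cells. Library 3 was the highest in both groups, at 1.72 times the other control libraries and 2.18 times the other Al libraries, and the groups overlapped. The log2FC of 0.47 (SE 0.35, adjusted P = 0.259) was not called, but without Al replicate 1 it was 0.82 and was called. The neuronal transporter GLUT3 was not detectable at this depth: Slc2a3 had 3 reads in control library 2 and 0 in the other 5 libraries, and a count of 0 allows up to 3 reads, for counting error only. Slc2a4, the gene of the insulin-responsive GLUT4, had 0 to 6 reads in control cells and 0 to 10 in Al cells.

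Hexokinase traps glucose as glucose 6-phosphate, and Hk1, the isozyme of brain, was called higher. Its level was 33, 31.9 and 36.9 in control cells and 55.6, 54.3 and 51.4 in Al cells, a log2FC of 0.66 (SE 0.10, adjusted P = 0.000444). The groups did not overlap, but the call was lost under each other scaling, at 0.18 for unscaled FPKM, 0.34 for quantile normalization and -0.12 for TPM, where the sign turned. Hk2, the inducible isozyme, had 20.1 ± 4.01 and 20.8 ± 5.05 (SD, n = 3 each) and a log2FC of 0.05, so that the share of Hk2 in the FPKM of Hk1 and Hk2 was 35.8%, 35.0% and 40% in control cells and 23%, 26.4% and 34.0% in Al cells. The shares did not overlap (P = 0.1 in a two-sided exact permutation test, the lowest value that 3 libraries against 3 can give). Hk3 had at most 5 reads in a library. Gpi1, which makes fructose 6-phosphate, had 187 ± 32.8 and 252 ± 28.2 (SD, n = 3 each) with overlapping groups, and its log2FC of 0.44 (adjusted P = 0.0416) was short of the fold change threshold.

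Phosphofructokinase, the committed step of glycolysis and its main point of control, was lower in 2 of its 3 isozymes. Pfkm, the muscle type, had 22.3, 21.8 and 21.7 in control cells and 7.72, 7.12 and 7.39 in Al cells. The log2FC of -1.55 (SE 0.09, adjusted P = 8.11e-06) had the smallest standard error of the 30 genes, and the deposited values rested on 3610 to 4109 reads per control library and 456 to 594 per Al library. Pfkp, the platelet type, went from 18.1, 17.5 and 18.5 to 7.33, 6.84 and 8.99, a log2FC of -1.22 (SE 0.12, adjusted P = 5.92e-05). Both isozymes were thus lower in every Al library than in every control library. Pfkl, the liver type, had 37.0, 37.1 and 57.7 in control cells and 22.4, 28.4 and 42.9 in Al cells, with library 3 highest in both groups and the groups overlapping. Its log2FC of -0.51 (SE 0.25, adjusted P = 0.106) was not called. It was called lower without Al replicate 3 (-0.75) and under each other scaling of the libraries, at -0.996 for unscaled FPKM, -1.29 for TPM and -0.78 for quantile normalization.

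The make-up of phosphofructokinase therefore differed between the groups. Within a library, where no scaling enters, Pfkl took 47.8%, 48.6% and 58.9% of the FPKM of the 3 isozymes in the control group and 59.8%, 67.1% and 72.4% in the Al group. Pfkm took 26.5% ± 3.75 in control cells and 16.6% ± 4.08 in Al cells (SD, n = 3 each). Neither share overlapped between groups (exact permutation test, P = 0.1, the lowest possible), although control library 3 and Al library 1 differed by only about a percentage point in Pfkl. The share of Pfkp overlapped (exact permutation test, P = 0.2).

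The PFKFB enzymes make and break fructose 2,6-bisphosphate, the strongest activator of phosphofructokinase, and their mRNAs were scarce, with 37 to 919 reads per library. Pfkfb2, the heart type, had 2.11, 1.82 and 1.65 in control cells and 0.967, 0.876 and 1.15 in Al cells, a log2FC of -0.84 (SE 0.20, adjusted P = 0.00566), a call lost with a pseudocount of 1 (-0.52). Pfkfb3, the inducible type with the strongest kinase activity, had 1.28, 1.65 and 0.960 and then 0.879, 0.510 and 0.809. Its log2FC of -0.75 (SE 0.28, adjusted P = 0.0433) was called, but the lowest control value lay close to the highest Al value. The call was lost without control replicate 1 (-0.74), control replicate 2 (-0.58) or Al replicate 2 (-0.53), and with a pseudocount of 1 (-0.40). Pfkfb1, the liver type, had a log2FC of -0.69 (adjusted P = 0.0884) and was not called, and its value of 1.76 in Al library 3 lay among the control values of 1.86, 1.54 and 1.74; without that library it was -1.06 and called.

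Pfkfb4 was the exception of the family. It had 1.61, 1.42 and 1.68 in control cells and 1.95, 2.26 and 3.13 in Al cells, a log2FC of 0.59 (SE 0.21, adjusted P = 0.0345) that lay just past the threshold. The call was lost without control replicate 2 (0.51), without Al replicate 3 (0.41), without library 3 of both groups (0.45), after centring within bins of GC content (0.47), with a pseudocount of 1 (0.41), with unscaled FPKM (0.12) and with TPM (-0.16). Its share of the FPKM of the 4 PFKFB genes was 23.5%, 22.1% and 27.9% in control cells and 44.0%, 49.7% and 45.6% in Al cells. That share separated the groups by more than the spread within them and does not depend on scaling (exact permutation test, P = 0.1, the lowest possible).

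At the end of the preparatory phase 1 of 3 genes was called. Aldoa, the main aldolase, which cleaves fructose 1,6-bisphosphate, had 425, 379 and 600.2 in control cells and 409, 482 and 455 in Al cells. The log2FC was -0.04 (SE 0.20, adjusted P = 0.886) and its 3 Al values lay within the range of the control values. Tpi1, which interconverts the triose phosphates, had 270.3, 274 and 402 and then 336, 428 and 433, a log2FC of 0.36 (SE 0.20, adjusted P = 0.154), with control library 3 inside the Al range. Aldoc, the aldolase of brain, was called higher at a log2FC of 1.44 (SE 0.30, adjusted P = 0.00315), yet it rested on 14 to 38 reads per control library and 29 to 43 per Al library, or 0.178 ± 0.0721 and 0.640 ± 0.0673 (SD, n = 3 each). With a pseudocount of 1 its log2FC was 0.48 and the call was lost.

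Gapdh, which makes the first NADH of the payoff phase, had the largest increase of the 30 genes. It had 9.25, 7.16 and 12.8 in control cells and 79.3, 85.1 and 77.3 in Al cells, so that the lowest Al value was several times the highest control value. The log2FC was 3.08 (SE 0.19, adjusted P = 8.45e-06). Its read counts were 860, 774 and 1378 in the control libraries, which had the larger totals, and 3496, 3123 and 3138 in the Al libraries. The level itself was out of step with its neighbours. By FPKM Gapdh ranked between 4511 and 6497 among all symbols in control cells and between 822 and 1015 in Al cells, whereas Pgk1, the next enzyme, ranked between 76 and 134 in all 6. The FPKM of Gapdh was 0.0246 ± 0.00389 of that of Pgk1 in control cells and 0.0832 ± 0.0189 in Al cells (SD, n = 3 each). Gapdh is the gene with 153 annotated pseudogene copies and with the window shared base for base with Gm7336. The copy Gapdh-ps15, 99.5% identical over 999 bases, is in the table and had at most 0.0736 FPKM in a library. Of the other genes in the table with a transcript like Gapdh, Vmn2r60, 98.2% identical over 818 bases, was at 0 in every library, and Peli2, 92.4% identical over 869 bases, had 7.18 to 8.81 FPKM in control cells and 3.40 to 4.23 in Al cells. The part of read placement was not tested.

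Pgk1, which makes the first ATP of the payoff phase, had 318, 319 and 572 in control cells and 1088, 1185 and 736 in Al cells. Every Al value lay above every control value, but library 3 of each group lay toward the other group. The log2FC was 1.34 (SE 0.29, adjusted P = 0.00366). Pgam1, the main phosphoglycerate mutase, had 148, 130.3 and 219.7 and then 473, 504 and 366, a log2FC of 1.45 (SE 0.22, adjusted P = 0.000526) with library 3 again nearest the other group. Its muscle paralog Pgam2 was scarce, with 39 to 104 reads per library, and had a log2FC of 0.86 (SE 0.25, adjusted P = 0.0160). Unscaled FPKM (0.39), TPM (0.10) or leaving out library 3 of both groups (0.55) ended that call. Bpgm, which diverts 1,3-bisphosphoglycerate to 2,3-bisphosphoglycerate, went the other way. It had 12.3, 11.9 and 13.6 in control cells and 5.47, 6.70 and 6.48 in Al cells, a log2FC of -1.01 (SE 0.12, adjusted P = 0.000150). The ratio of Pgam1 to Bpgm within a library rose from 12, 11 and 16.1 to 86.4, 75.3 and 56.5.

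Eno1, the enolase of most tissues, had 344, 306 and 462 in control cells and 987, 971 and 672 in Al cells, a log2FC of 1.24 (SE 0.23, adjusted P = 0.00178). The near-identical coding copy Eno1b, 99.4% identical over all 1302 coding bases, is listed as a gene of its own and had 162, 154 and 226 and then 471, 479 and 310.1, a log2FC of 1.21 (adjusted P = 0.00146). Eno1 and Eno1b kept a similar proportion in every library: Eno1 was 2.13, 1.98 and 2.04 times Eno1b in control cells and 2.09, 2.03 and 2.17 times in Al cells. The groups overlapped (exact permutation test, P = 0.5), which does not show that they are equal. Their values may hold shared reads and were not counted as separate results. Eno2, the neuron-specific enolase, had 1.91, 2.23 and 3.14 and then 1.08, 1.50 and 3.57, far below Eno1 in every library. Eno2 had a log2FC of -0.38 (SE 0.39, adjusted P = 0.422), which was -0.84 and called without Al replicate 3. Eno3, the muscle enolase, had 15.9 ± 1.79 and 13.1 ± 2.22 (SD, n = 3 each) and was not called.

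Pkm, the pyruvate kinase of most tissues and the last step before pyruvate, was the most abundant of the 33 genes in every library. It had 658, 643 and 928 in control cells and 2036, 2129 and 1582 in Al cells, a log2FC of 1.38 (SE 0.26, adjusted P = 0.00185). Pkm took 21.7% ± 0.698 of the FPKM of the 33 genes in control cells and 28.5% ± 1.23 in Al cells (SD, n = 3 each). The table does not separate its splice forms PKM1 and PKM2. Together, the 33 genes took 0.982%, 0.929% and 1.35% of all FPKM in control cells and 1.15%, 1.28% and 1.26% in Al cells. The groups overlapped, and control library 3 had the highest share of all 6 libraries.

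**Figure D2:**
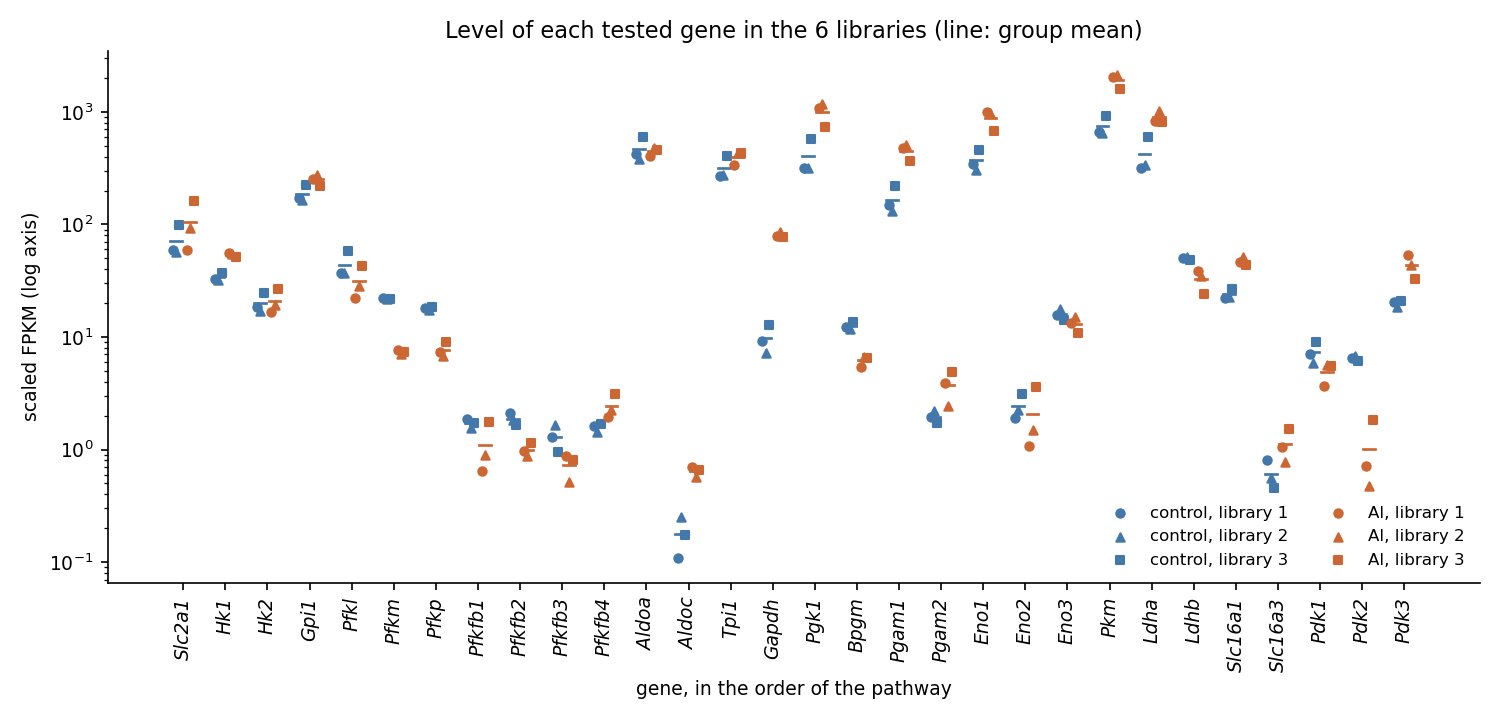
Level of the 30 tested genes in each of the 6 libraries as scaled FPKM on a log axis, with blue for control, orange for Al, a marker shape per library number and a short line at each group mean. The genes span about 4 orders of magnitude, from Aldoc at 0.108 in control library 1 to Pkm at 2129 in Al library 2, and library 3 (squares) often lies toward the other group in the abundant payoff genes.

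At the lactate end of the pathway the A subunit of lactate dehydrogenase was called higher and the B subunit lower. Ldha, whose subunit favours lactate formation, had 316, 338 and 603 in control cells and 837, 1023 and 814 in Al cells, a log2FC of 1.14 (SE 0.27, adjusted P = 0.00545). Control library 3 stood well above the other 2 but still below every Al library. Ldhb, whose subunit favours the use of lactate, had 50.5, 51.0 and 48.5 and then 38.7, 35.1 and 23.9, a log2FC of -0.64 (SE 0.17, adjusted P = 0.00892). Without Al replicate 3, the lowest library, it was -0.43 and the call was lost. Both genes have annotated copies, so the next values carry that limit. The share of Ldhb in the FPKM of both genes was 13.8%, 13.1% and 7.44% in control cells and 4.42%, 3.32% and 2.86% in Al cells. The log2 ratio of Ldha to Ldhb was higher by 1.79 in the Al group, and by 1.61 to 2.11 with any library left out, with no overlap (exact permutation test, P = 0.1, the lowest possible).

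Lactate leaves the cell through monocarboxylate transporters. Slc16a1, the gene of MCT1, had 22.4, 22.6 and 26.8 in control cells and 46.1, 51.1 and 43.2 in Al cells, a log2FC of 0.97 (SE 0.11, adjusted P = 0.000126) and no overlap of the groups. Unscaled FPKM (0.48) or TPM (0.18) ended the call. Bsg, the chaperone (basigin) that carries MCT1 to the membrane, was called higher too, at 237, 240.0 and 327 and then 819, 991 and 647, a log2FC of 1.61 (adjusted P = 0.000287). Slc16a3, the gene of the glycolytic transporter MCT4, was scarce, at 49 to 129 reads per library, and its groups overlapped. The log2FC of 0.76 (SE 0.30) was called at the unadjusted P but had an adjusted P of 0.0535. The call was lost without control replicate 2 (0.71), control replicate 3 (0.59), Al replicate 1 (0.78) or Al replicate 3 (0.54), without library 3 of both groups (0.37), with no filter (0.76), with a pseudocount of 1 (0.38), with unscaled FPKM (0.33) and with TPM (0.07).

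The pyruvate dehydrogenase kinases inactivate pyruvate dehydrogenase, and their isozymes moved apart. Pdk2, the most widespread isozyme, had 6.55, 6.84 and 6.17 in control cells and 0.713, 0.472 and 1.84 in Al cells, from 774 to 941 reads and from 22 to 95 reads. Its log2FC of -2.78 (SE 0.39, adjusted P = 0.000339) was the largest decrease of the 30 genes. Al library 3 held 2.85 times the level of the other Al libraries and still lay far below the control libraries. Pdk3 had 20.3, 18.3 and 20.8 and then 53.6, 44.0 and 32.9, a log2FC of 1.10 (SE 0.17, adjusted P = 0.000531). Pdk1, a target of the hypoxia-inducible factors, had 7.12, 5.92 and 9.06 and then 3.64, 5.65 and 5.51. Its groups did not overlap, and its log2FC of -0.57 (SE 0.21, adjusted P = 0.0405) stopped just short of the threshold; it was called without control replicate 1 (-0.60), control replicate 2 (-0.73), Al replicate 2 (-0.68) or Al replicate 3 (-0.66).

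Pdk4, the kinase of fasting, is in the list of further isoforms and is named here after its values were seen. It was called lower, at 4.77, 5.22 and 4.94 and then 2.30, 3.06 and 2.91, a log2FC of -0.84 (SE 0.15, adjusted P = 0.00139). Its level was above that of Pdk2 in every Al library.

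The make-up of the kinases differed between the groups. Pdk3 took 59.8%, 58.9% and 57.8% of the FPKM of the 3 kinases in control cells and 92.5%, 87.8% and 81.7% in Al cells. Pdk2 took 19.5% ± 2.47 in control cells and 2.25% ± 2.02 in Al cells (SD, n = 3 each). With Pdk4 counted in, Pdk3 took 52.4%, 50.4% and 50.8% and then 89.0%, 82.7% and 76.2%, and Pdk4 took 12.9% ± 1.27 and 5.44% ± 1.49 (SD, n = 3 each). No share overlapped between the groups, with or without Pdk4 (exact permutation test, P = 0.1, the lowest possible). The log2 ratio of Pdk3 to Pdk2 was higher by 4.04 in the Al group and by 3.59 to 4.79 with any library left out.

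The payoff phase was set against the preparatory phase within each library, a comparison chosen after the values were seen and free of the scaling between libraries. The summed FPKM of the 8 payoff enzymes (Gapdh, Pgk1, Pgam1, Pgam2, Eno1 to Eno3 and Pkm) was 1.50, 1.51 and 1.60 times that of the 10 preparatory enzymes (Hk1 to Hk3, Gpi1, Pfkl, Pfkm, Pfkp, Aldoa, Aldoc and Tpi1) in the control libraries, and 4.21, 3.75 and 2.77 times in Al cells. The ratio varied little among the control libraries, even where control library 3 had higher values of both phases. The log2 ratio was higher by 1.196 in the Al group, by 1.18 with Gapdh left out and by 1.07 to 1.37 with any library left out (exact permutation test, P = 0.1, the lowest possible). The sums were carried by genes with annotated copies. Over the 5 payoff and 3 preparatory genes with a copy the log2 ratio was higher by 1.17 in the Al group. Over the 3 payoff genes (Pgam2, Eno2 and Eno3) and the 7 preparatory genes without a copy it was higher by 0.08, with overlapping groups (exact permutation test, P = 0.7). The ratio of these genes was 0.150 ± 0.0287 in control cells and 0.156 ± 0.0144 in Al cells (SD, n = 3 each). The median log2FC was -0.29 for the payoff genes without a copy and -0.23 for the 6 tested preparatory ones. Between 2 genes with copies, Pgk1 was 0.748, 0.842 and 0.953 times Aldoa in control cells and 2.66, 2.46 and 1.62 times in Al cells.

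**Figure D3:**
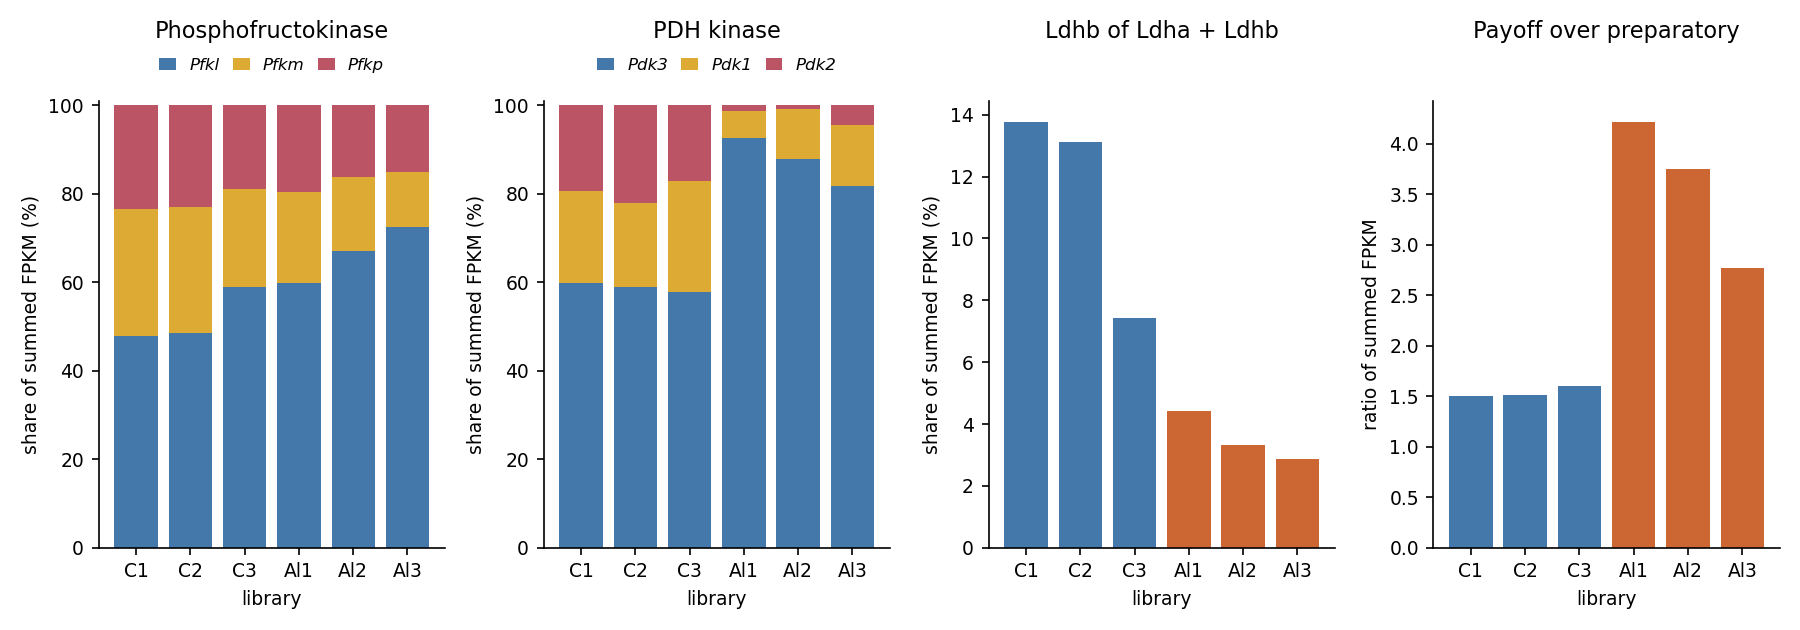
Make-up of the pathway within each library (C1 to C3 control, Al1 to Al3 Al). The first 2 panels stack the shares of summed FPKM in percent for the 3 phosphofructokinases and the 3 PDH kinases, the next shows the share of Ldhb in Ldha and Ldhb, and the last the ratio of the 8 payoff to the 10 preparatory enzymes. Pdk3 takes over 80% in every Al library, Ldhb falls below 5%, and the payoff ratio lies above 2.7 in every Al library and at 1.50 to 1.60 in the control libraries.

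The many-copy genes were set against the others. A group of 7 genes (Gapdh, Pgk1, Eno1, Ldha, Pkm, Tpi1 and Aldoa) had been named as having many copies, although by the counts above it holds Tpi1 and Aldoa with 2 copies and leaves out Pgam1 with 3. Of these 7 genes, 5 were called higher and 0 lower (limma, 2 not called), with a median log2FC of 1.24 and a range of -0.04 to 3.08. Of the 23 other tested genes, 8 were called higher and 7 lower, with a median of -0.29 and a range of -2.78 to 1.45. By the annotated pseudogene copies, 6 of the 10 genes with a copy were called higher and 1 lower, with a median of 1.19. Of the 20 tested genes without a pseudogene copy, Pfkfb2 among them, 7 were called higher and 6 lower, with a median of -0.34. Copies and abundance mostly went together: 8 of the 30 genes had a mean of at least 100 scaled FPKM, and each of them had at least 1 annotated copy. Gapdh, with 153 copies and the largest rise, and Ldhb, with 1 copy, lay below that level, at 10 to 100. Of all 619 tested genes at that level 68.3% were called higher and 5.65% lower, with a median log2FC of 0.95, and 5 of these 8 genes were called higher, with a median of 1.19. The rise of the abundant enzymes was therefore near that of abundant genes in general. Aldoa and Tpi1, with 2 copies each, and Gpi1, with 1, were not called, though Aldoa was called lower with TPM (-0.82) and with quantile normalization (-1.04). The 7 genes called higher without an annotated copy were Hk1, Pfkfb4, Aldoc, Pgam2, Slc16a1, Slc16a3 and Pdk3. Only at 1 to 10 scaled FPKM did the calls lean the other way. There, 4 of 9 glycolytic genes were called lower and 2 higher, against 37.6% and 17.1% of all 4900 genes. At 10 to 100, 29.7% of all genes were called higher and 16.5% lower, beside 4 and 3 of 11 glycolytic genes. The shares at 0.1 to 1 were 27.2% and 18.3%, beside 2 and 0 of 2 glycolytic genes. Another set of abundant genes, the 83 symbols of ribosomal proteins, took 13.9% to 16.1% of all FPKM in the control libraries and 26.8% to 28.9% in the Al libraries. The part of abundance and of read placement was not tested.

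The calls depended on how libraries were put on one scale. With FPKM as deposited the median log2FC of all tested genes shifted by -0.46 and with TPM, which sets every library to the same sum, by -0.75. These 3 scalings differ by 1 factor per library, so they move all genes nearly alike and can hardly change the distance of a gene from that median. Quantile normalization, which forces the same distribution on every library, can: the median of the 7 many-copy genes lay 1.21 above that of all genes with size factors and 0.12 above it with quantile normalization, and the 23 other genes lay 0.32 and 0.27 below it. Pgk1, Eno1 and Ldha were no longer called with TPM (0.56, 0.46 and 0.36) or with quantile normalization (0.28, 0.20 and 0.09), Pkm was not with quantile normalization (-0.10), and Pdk3 was not with TPM (0.32), whereas Gapdh kept a log2FC of at least 2.29 under every setting tried. The 6 genes Pfkm, Pfkp, Bpgm and Pdk2, called lower, and Gapdh and Pgam1, called higher, passed under all 19 alternative settings. The other 14 of the 20 called genes lost the call under at least 1 setting, mostly another scaling. Other genes gained a call: Pfkl was called lower under all 3 other scalings, and Pfkfb1, Eno3 and Pdk1 were with FPKM as deposited and with TPM.

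**Figure D4:**
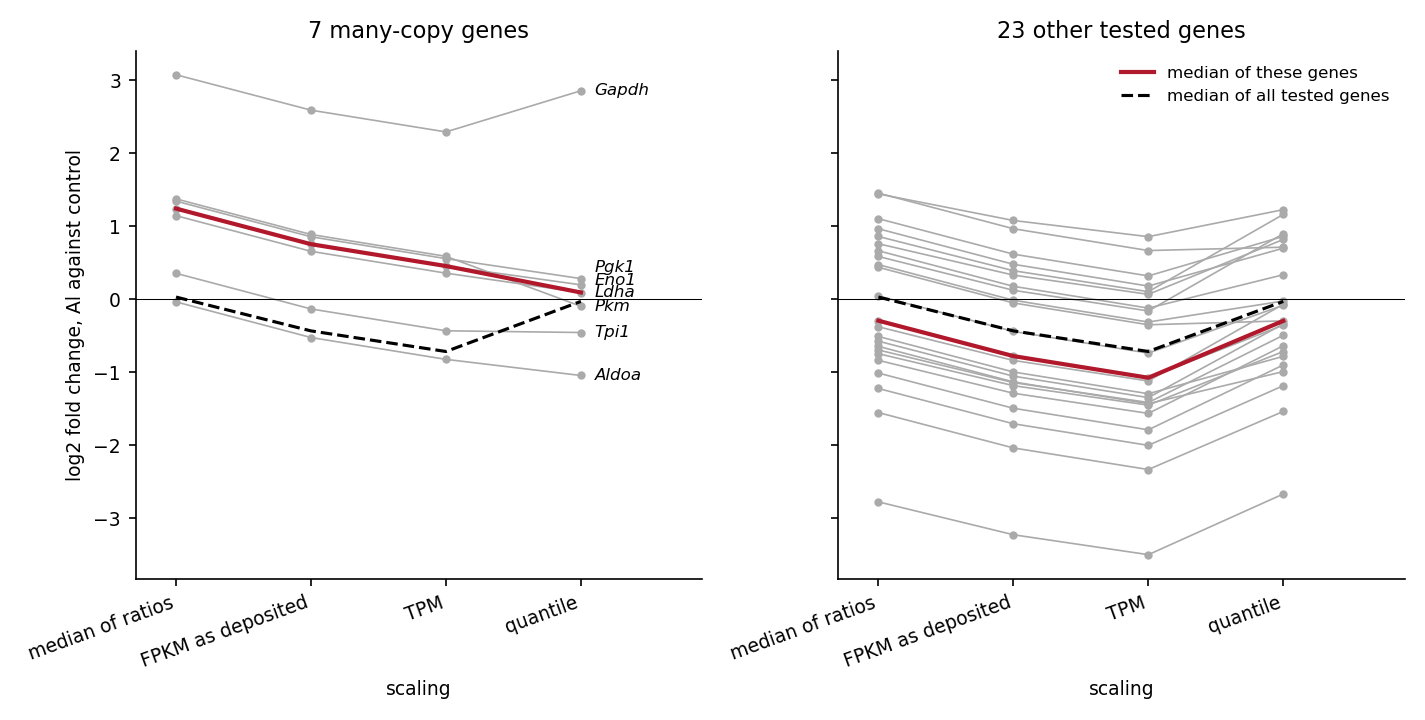
Log2 fold change (Al against control) of the 7 many-copy genes, left, and the 23 other tested genes, right, under 4 scalings on the x axis. Grey lines are genes, the red line their median and the dashed black line the median of all tested genes. The median of the many-copy genes runs beside the dashed line for the 3 scalings by 1 factor per library and comes near it with quantile normalization (0.09), while Gapdh stays above 2.

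Genes around the pathway were counted by list. Of 15 tested further isoforms and transporters, 3 were called higher and 3 lower (20% each, against the 26.2% and 24.4% of all tested genes). Beside Bsg, they were led by Adpgk, an ADP-dependent glucokinase, which went from 16.6 ± 1.48 to 4.86 ± 0.506 (log2FC -1.75, adjusted P = 1.42e-05), by the fructose transporter gene Slc2a5 at -1.18 and by the D-lactate dehydrogenase gene Ldhd at 1.16. Ldhd had a mean of only 0.203 in the control group and lost its call without control replicate 2 (1.03), control replicate 3 (1.03), Al replicate 2 (1.005) or Al replicate 3 (0.93). In the pentose phosphate pathway, which draws on glucose 6-phosphate, 2 of 8 genes were called higher and 2 lower, and H6pd, its first enzyme in the endoplasmic reticulum, had -1.43. In the hexosamine pathway, which draws on fructose 6-phosphate, 0 of 5 tested genes were called higher by limma and 2 lower, namely Gfpt1, its first and rate-limiting enzyme, at -1.44 (adjusted P = 3.53e-05), and Gnpnat1 at -1.34.

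At the entry of pyruvate into mitochondria, 2 of 10 genes were called higher and 2 lower. Subunits of the phosphatase that reverses the PDH kinases stood on both sides. Pdpr, its regulatory subunit, went from 10.9, 10.4 and 10.9 to 2.18, 3.07 and 3.88 (log2FC -1.81, adjusted P = 8.35e-05), and Pdp1, a catalytic subunit, had -1.45. Pdp2, the other catalytic subunit, named here after its values were seen, was called higher, from 6.83, 5.81 and 6.79 to 12.3, 14.5 and 12.1 (log2FC 0.99, adjusted P = 0.000175). Among 10 genes of the shuttles that return cytosolic NADH to mitochondria, 4 were called higher and 4 lower. Gpd1, the cytosolic glycerol 3-phosphate dehydrogenase, had 0.167, 0.205 and 0.185 and then 1.24, 1.29 and 1.55, a log2FC of 2.35 (adjusted P = 6.61e-05), while its paralog Gpd1l had -1.22 and the mitochondrial malate carrier gene Slc25a11 had -1.26. Of 8 gluconeogenic genes 3 were tested, and limma called 0 of them. Of 13 tested regulators, 4 were called higher and 2 lower. Myc, a transcription factor that binds many glycolytic promoters, had 45.2, 44.7 and 52.7 and then 115, 121 and 72.2 (log2FC 1.07, adjusted P = 0.00127), a call lost with TPM (0.29). Egln2, an oxygen sensor of the hypoxia pathway, had -1.15. Its paralog Egln1, named here after its values were seen, was called higher, at 0.73 (limma, adjusted P = 0.0011). Of the 14 genes of these lists with a call and a log2FC beyond 1, all but Ldhd and Myc passed under every setting that kept them, and Gpd1 was dropped by the filter at a mean FPKM of 1.

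The promoters of the pathway carry a known element. Hypoxia-inducible factors bind at the letters ACGTG, and Myc and the Mlx factors at CACGTG, which contains them. Both strands were searched for ACGTG in RefSeq windows of GRCm38.p6 from 250 bases before to 50 bases after each gene start, with a CACGTG counted as 1 place. A gene may have several starts and so several windows. By window, it was present in 22 of the 50 windows of the glycolytic genes (44.0%) and in 19.6% of all 32851 windows. By gene, it was present in at least 1 window of 18 of the 31 genes with a window (58.1%) and of 21.8% of all 27025 genes, but the glycolytic genes had more windows each. Of the 17 tested genes with it 10 were called higher and 4 lower, and of the 13 without it 3 and 3. Over all tested genes with a window, 26.6% of the 2790 with the letters were called higher and 24.4% lower, against 25.7% and 24.5% of the 6995 without them. The 250 bases before a start of Ldha (chr7:46845554-46845803, plus strand, 3 places), Pgk1 (chrX:106186850-106187099, plus strand, 2 places) and Pdk2 (chr11:95041372-95041621, minus strand, 1 place) are shown with the matches in capitals, because the first 2 genes were called higher and the last had the largest decrease. Ldha and Pdk2 have 2 windows each, of which only the one shown holds the letters, and that of Ldha lies inside the annotated gene, whose first base is at 46841475.
Ldha: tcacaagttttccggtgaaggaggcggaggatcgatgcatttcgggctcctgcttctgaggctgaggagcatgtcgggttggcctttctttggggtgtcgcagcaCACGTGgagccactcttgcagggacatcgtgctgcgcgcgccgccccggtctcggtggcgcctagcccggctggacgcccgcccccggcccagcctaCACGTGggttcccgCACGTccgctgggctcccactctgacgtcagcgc
Pgk1: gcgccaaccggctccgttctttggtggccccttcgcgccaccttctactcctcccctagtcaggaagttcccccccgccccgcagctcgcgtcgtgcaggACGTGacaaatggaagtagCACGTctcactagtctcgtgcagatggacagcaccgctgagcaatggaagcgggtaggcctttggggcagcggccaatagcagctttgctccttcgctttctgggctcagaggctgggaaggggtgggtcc
Pdk2: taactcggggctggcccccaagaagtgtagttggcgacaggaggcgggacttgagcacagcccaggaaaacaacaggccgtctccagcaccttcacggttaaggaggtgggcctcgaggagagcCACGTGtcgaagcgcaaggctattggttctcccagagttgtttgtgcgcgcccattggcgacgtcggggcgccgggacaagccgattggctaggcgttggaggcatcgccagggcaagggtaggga
The same letters thus stand before genes that moved in opposite directions, and nothing was measured here of what binds them.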

How the data were processed

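RNA of 6 HT22 input libraries was measured, 3 control and 3 Al. The authors used Trimmomatic for trimming, SortMeRNA against ribosomal RNA and HISAT2 for alignment to GRCm38/mm10, while the submitters' processing notes name fastp, HISAT2, HTSeq and GRCm39 and the series' design text names yet another genome, BosGru3.0, so that the genome behind the values is uncertain; the deposited values are FPKM, and the program that made them is not given in the sources used here. The libraries are labelled C and M, and M was taken as the Al group. The genes and lists were chosen with earlier results of these data known.

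FPKM were divided by median-of-ratios size factors taken from the genes detected in every library at a mean FPKM of 1 or more. Groups were compared with limma 3.58.1 in R 4.3.3 (eBayes with trend, pseudocount 0.1, mean FPKM of at least 0.1), with Benjamini-Hochberg adjustment over all 12889 genes. P values measure the spread between these 3 and 3 libraries. On simulated data of 12876 genes limma recovered 100.0% of 200 genes changed by 2 on the log2 scale. It called 0.536% of the unchanged genes in those data. In the measured libraries a far larger part of the genes was called, 26.2% higher and 24.4% lower. The share of unchanged genes called in the measured libraries was not tested. Recovery of reads from FPKM was tested on simulated data of 2920 genes and was exact for 96.1%, and limma's voom on the recovered reads was an alternative. Shares and ratios were compared by exact permutation tests (scipy 1.17.1). Copies were found with blastn 2.17.0 against GENCODE vM21 transcripts. Markers and pathway lists are given as counts, with values named for list genes with a call and an absolute log2 fold change over 1. The alternatives were other scalings, pseudocounts and filters, a fit without trend, one with a replicate block, leaving out each library, the adjusted P, GC bins and, chosen after seeing the data, leaving out library 3 of both groups.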

Additional observations from a re-analysis of the deposited data

How the results depend on the processing

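The scaling of the libraries moved the counts of called genes most. With FPKM as deposited, 8 glycolytic genes were called higher and 11 lower, with TPM 4 and 14, and with quantile normalization 8 and 9, in place of 13 and 7; the median log2 fold change of the glycolytic genes became -0.0914, -0.39 and -0.0892 in place of 0.40. Over all tested genes, 3375 were called higher and 3143 lower, against 1805 and 5417 with FPKM as deposited and 1200 and 6843 with TPM. Under TPM 6 glycolytic genes changed sign: Hk1 (-0.12) and Pfkfb4 (-0.16), both called in the reported fit, Hk2 (-0.74), and the uncalled Slc2a1 (-0.31), Gpi1 (-0.35) and Tpi1 (-0.43). Under quantile normalization 5 did, Pkm (-0.10) and the uncalled Slc2a1, Hk2, Gpi1 and Tpi1, and with FPKM as deposited the same 4 uncalled genes. Hk2 or Aldoa, both near 0, changed sign under 7 other settings. The cause was not tested. With each library left out in turn, 11 to 13 glycolytic genes were called higher and 7 to 10 lower, and 6159 to 6762 of all genes were called in place of 6518. Without library 3 of both groups the counts were 11 and 8. Same-numbered libraries did not deviate together over all tested genes (correlations of -0.03, -0.03 and -0.07), which does not exclude that they were paired. With a replicate block, 13 glycolytic genes were called higher and 7 lower, and 6475 of all genes were called. The other settings, which were the pseudocounts, filters, trend, adjusted P, voom and GC bins, gave 10 to 13 higher and 5 to 9 lower. Of the 10 genes not called, 9 were called under at least 1 alternative, Hk2 in the opposite direction. Depth limits the scarce genes: at most 129 reads lay behind each value of Slc16a3, Pgam2 and Aldoc, and at most 95 behind the Al values of Pdk2.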
